A study of Mus musculus with 6 samples.

Results

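The 6 genes described here are reported targets of the miR-16 family that act outside the cell cycle: Bcl2, Igf1r, Fgfr1, Map2k1, Smad7 and Acvr2a. They were taken by gene name, with no measured value in the rule, and each matched 1 of the 55421 gene identifiers of the count table. All 6 passed the filter on low counts. Gene expression was measured by RNA-seq in C2C12 cells, a mouse myoblast line, on day 4 of differentiation into myotubes. Every library came from cells of the CUG200 model of myotonic dystrophy type 1 (DM1), which stably carry a GFP gene with 200 CTG repeats behind its coding sequence. The control group (CUG200-ctrl, 3 libraries) also carried the empty vector, and the CUG200-m group (3 libraries) carried the same vector with a fragment that encodes miR-322 and miR-503. Stable lines were obtained by drug selection and each group is named as 1 line, with nothing said of clones, so effects of the microRNAs and other differences between these lines cannot be told apart. The study's methods give 3 biological replicates as the general rule for its assays, while the labels do not tie the libraries of a group to separate cultures, so p-values measure the spread between these libraries.

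MicroRNAs guide the RISC complex to messenger RNAs, mostly through pairing of the seed, the bases 2 to 8 of the microRNA, with the 3'UTR, and a paired messenger is degraded or translated less. RNA-seq reads only the first of these outcomes. In muscle, miR-322 and miR-503 come from 1 cluster on the X chromosome that is known to be switched on as myoblasts leave the cell cycle. The targets here stand at other points of growth and survival signaling: Bcl2 blocks apoptosis at the mitochondrion, Igf1r and Fgfr1 are receptor tyrosine kinases, Map2k1 is the kinase MEK1 that activates ERK, Smad7 is the inhibitory SMAD of TGF-beta signaling and Acvr2a is a type II receptor for activins and myostatin.

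The mature sequences are printed to show what the overexpressed pair shares with the rest of the family, with the seed in capitals and the microRNAs grouped by seed. They are RefSeq sequences on GRCm38.p6, read 5′ to 3′, and all 7 searched names were found.
miR-322-5p: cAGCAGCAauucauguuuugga
miR-15a-5p: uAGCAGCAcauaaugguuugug
miR-15b-5p: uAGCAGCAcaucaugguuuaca
miR-16-5p: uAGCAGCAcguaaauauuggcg
miR-195a-5p: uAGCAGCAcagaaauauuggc
miR-497a-5p: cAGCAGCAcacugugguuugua
miR-503-5p: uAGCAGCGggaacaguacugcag
miR-322-5p has the same seed as miR-15a-5p and miR-16-5p, while miR-503-5p differs from it in the last base of the seed. The dose of the microRNAs themselves could not be read from these libraries of total RNA. Mir322 had 1, 7 and 2 estimated counts in the control libraries and 17, 0 and 3 in the CUG200-m libraries. Mir503 had 1, 1 and 2 against 6, 4 and 5. These are too few to test, and the precursor genes Mir15a, Mir15b, Mir16-2, Mir195a and Mir497 were at 0 in every library.

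All 6 targets held at least 1 match to the seed in their longest annotated 3'UTR (GENCODE M21, GRCm38). They were chosen as reported targets of microRNAs with this seed, so a match in each adds no support. Letters searched on the sense strand of the 3'UTR were TGCTGCT, which pairs with the whole seed of miR-322-5p (7mer-m8), CGCTGCT, which pairs with that of miR-503-5p, and GCTGCTA, which pairs with bases 2 to 7 of either microRNA and ends in A (7mer-A1). A match to TGCTGCT followed by A is an 8mer. Such matches are common, since 30.1% of the 13409 tested genes with a 3'UTR of at least 50 bases held at least 1, and 59.0% did among the 3355 of these with the longest 3'UTRs. An 8mer of either microRNA was rarer, at 5.03% of the tested genes. None of the 6 targets held CGCTGCT, which was present in 4.87% of the tested genes.

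The matches of 5 targets are printed with the matched bases in capitals, since they are the places where the overexpressed microRNAs could pair. Sequences are given 5′ to 3′ on the strand of the messenger, with coordinates on GRCm38.
Bcl2, 8mer, chr1:106540798-106540805, minus strand: aagaaaccctgTGCTGCTAtcctgccaaga
Bcl2, 7mer-A1, chr1:106542815-106542821, minus strand: cctgcagtctgGCTGCTAgaagctttgaa
Igf1r, 7mer-A1, chr7:68227748-68227754, plus strand: ggaaaagaaaaGCTGCTAttttttttttg
Igf1r, 7mer-m8, chr7:68229951-68229957, plus strand: acccatccgtcTGCTGCTcacaggtggac
Fgfr1, 7mer-m8, chr8:25574773-25574779, plus strand: caataaaaaatTGCTGCTgcttcattttt
Fgfr1, 7mer-m8, chr8:25574776-25574782, plus strand: taaaaaattgcTGCTGCTtcatttttatc
Map2k1, 8mer, chr9:64186231-64186238, minus strand: aaagcatgcttTGCTGCTActgaaatgagc
Acvr2a, 7mer-A1, chr2:48899835-48899841, plus strand: tctgaactggaGCTGCTAagctaaggaaa
Acvr2a, 7mer-m8, chr2:48900287-48900293, plus strand: aatgtgtagtgTGCTGCTgttctgtgtac
Acvr2a, 7mer-m8, chr2:48902288-48902294, plus strand: cccaccagaacTGCTGCTcttactctacc
The matches of Fgfr1 overlap each other and can hold 1 microRNA at a time. Smad7 held 1 match, an 8mer that starts at base 69 of its 3'UTR of 1570 bases, the closest of the 8mers to a stop codon. The 8mer of Map2k1 starts at base 447 of 915, and that of Bcl2 at base 2459 of 5086. Igf1r had the longest 3'UTR, of 7267 bases, and the fewest matches per kilobase (0.275), close to the 0.281 over all tested genes. Fgfr1 had 1.11 per kilobase and Map2k1 1.09. The transcript with the longest 3'UTR was also the principal transcript of each target.

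**Figure D1:**
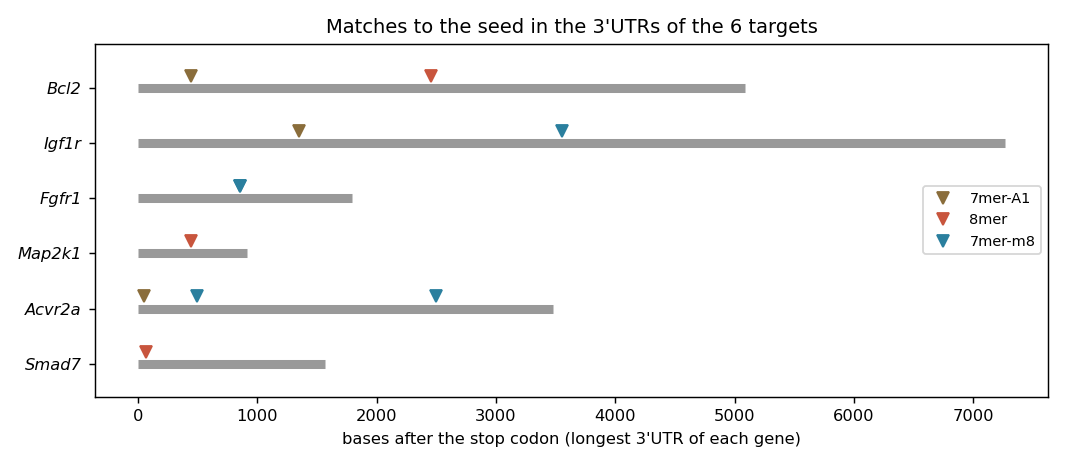
The horizontal axis gives bases after the stop codon and each grey bar is the longest annotated 3'UTR of a target; triangles mark the first base of each match to the seed, coloured by kind. The 8mers of Smad7 and Map2k1 lie at bases 69 and 447, that of Bcl2 lies at base 2459, and the overlapping matches of Fgfr1 at bases 852 and 855 appear as 1 triangle.

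Log2 fold changes of the 6 targets lay between -0.66 and 0.33. Genes were called by the quasi-likelihood test of edgeR with Benjamini-Hochberg adjustment over all 18140 tested genes and a threshold of 0.05. Smad7 and Igf1r were called lower in the CUG200-m group, none of the 6 was called higher, and the other 4 were not past the threshold, against 15.5% lower, 13.2% higher and 28.8% in either direction among all tested genes. None of the 6 passed the additional limit of a log2 fold change above 1 or below -1, which 9.87% of all tested genes did (4.59% above and 5.29% below). The median log2 fold change was 0.01 over the targets and -0.01 over all tested genes. Values below are CPM (edgeR's scaling of the estimated counts to TMM-normalized library size), and log2 fold changes are CUG200-m minus control. The median of all tested genes lay between -0.025 and 0.014 under all the settings tried.

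Smad7 had the largest difference of the 6. It is induced by TGF-beta and marks the type I receptors for degradation, which closes a negative loop. It was at 15.0, 24.0 and 23.2 CPM in control replicates 1 to 3 and at 12.4, 12.9 and 14.1 CPM in CUG200-m replicates 1 to 3. The groups did not overlap, but control replicate 1 lay much nearer to the CUG200-m libraries than to the other control libraries. The means were 20.7 ± 4.95 and 13.1 ± 0.855 CPM (SD, n = 3), 36.7% lower by the fitted fold change. On the log2 scale the change was -0.66 (standard error 0.18, 95% interval -1.08 to -0.25, edgeR adjusted p = 0.0285). Of all tested genes, 24.4% had a larger absolute log2 fold change. Without control replicate 1 the log2 fold change was -0.85 (edgeR adjusted p = 0.00192). Leaving out any 1 of the other 5 libraries lost the call, with log2 fold changes between -0.713 and -0.545 and edgeR adjusted p-values between 0.059 and 0.09. Smad7 (ENSMUSG00000025880) lies on chromosome 18 of GRCm38, from 75367529 to 75395935, whose 501 tested genes had a median of -0.03 on the log2 scale.

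Igf1r, the receptor through which IGF1 and IGF2 promote myoblast survival, differentiation and growth of the myotube, fell by less but with tight replicates. It was at 43.7, 44.9 and 43.5 CPM in the control libraries and 36.1, 39.5 and 36.1 CPM in the CUG200-m ones. Every control library was above every CUG200-m library, and the lowest control library and the highest CUG200-m library were replicates 3 and 2. The means were 44.0 ± 0.737 and 37.3 ± 1.94 CPM (SD, n = 3). On the log2 scale it was lower, at -0.24 (standard error 0.07, 95% interval -0.39 to -0.09, edgeR adjusted p = 0.0299). This is a fall of 15.4%, and 56.6% of all tested genes had a larger absolute log2 fold change. With limma on log2(TPM + 1) the log2 fold change was -0.225 and no longer past the threshold (adjusted p = 0.167). The call was also lost when any library other than CUG200-m replicate 2 was left out, with log2 fold changes between -0.250 and -0.215 and edgeR adjusted p-values between 0.055 and 0.0991. Igf1r (ENSMUSG00000005533) spans 67952827 to 68233668 of chromosome 7.

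Acvr2a went the other way without passing the threshold. It binds activins, myostatin and GDF11 and passes the signal to a type I receptor, which phosphorylates SMAD2 and SMAD3. It was at 21.4, 17.6 and 23.0 CPM in the control libraries and 25.9, 25.8 and 26.1 CPM in the CUG200-m ones. The 3 CUG200-m libraries were nearly equal and lay above all 3 control libraries. The means were 20.7 ± 2.76 and 25.9 ± 0.149 CPM (SD, n = 3). The log2 fold change was 0.33 (standard error 0.11, 95% interval 0.08 to 0.58, edgeR adjusted p = 0.0587). The threshold was passed with DESeq2 (log2 fold change 0.34, adjusted p = 0.0295) and without control replicate 3 (log2 fold change 0.41, edgeR adjusted p = 0.0366). Over all alternatives the adjusted p-value lay between 0.0295 and 0.186 in edgeR, DESeq2 and limma. Acvr2a (ENSMUSG00000052155) spans 48814109 to 48903269 of chromosome 2 and shares 446 exonic bases with Orc4 on the other strand. The sources used here do not say whether counting used strand, so reads in these bases cannot be told apart. Orc4 itself differed by 0.25 on the log2 scale (edgeR adjusted p = 0.472).

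Fgfr1, the main FGF receptor of myoblasts, through which FGF2 keeps them dividing, was one of the abundant targets. It was at 126, 127 and 120 CPM in the control libraries and 143, 137 and 136 CPM in the CUG200-m ones. All 3 CUG200-m libraries were above the control libraries on this scale. The means were 124 ± 3.56 and 139 ± 3.74 CPM (SD, n = 3). This gave a log2 fold change of 0.16 (standard error 0.05, 95% interval 0.03 to 0.28, edgeR adjusted p = 0.0652). It passed the threshold with the replicate number as a block (0.16, edgeR adjusted p = 0.0471), with RLE size factors (0.17, adjusted p = 0.0499) and with counts per read pair (0.165, adjusted p = 0.0413), and its adjusted p-value over all alternatives lay between 0.0413 and 0.398. With limma on log2(TPM + 1) and log2(TPM + 0.1), Fgfr1 was at 0.098 and 0.099 (limma adjusted p = 0.392 and 0.398). In TPM, the length-scaled values of the authors, its groups overlapped, at 70.4, 66.6 and 65.3 in the control and 75.2, 75.2 and 66.5 in the CUG200-m libraries. Fgfr1 (ENSMUSG00000031565) spans 25513654 to 25575718 of chromosome 8, and an antisense gene that shares 164 exonic bases with it, Gm16159, had 2 to 12 estimated counts.

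Map2k1 and Bcl2 gave no difference larger than the spread between replicates. Map2k1 was at 87.6, 82.8 and 77.5 CPM in the control libraries and 83.0, 77.0 and 73.8 CPM in the CUG200-m ones. The ranges overlapped, and the lowest value of each group was in replicate 3. The means were 82.6 ± 5.05 and 77.9 ± 4.64 CPM (SD, n = 3). The log2 fold change was -0.08 (standard error 0.07, 95% interval -0.25 to 0.08, edgeR adjusted p = 0.428). Map2k1 (ENSMUSG00000004936) spans 64185770 to 64253631 of chromosome 9, where 76.3% of the tested genes had a log2 fold change below 0. The median log2 fold change of the 1014 genes tested on that chromosome was -0.27, and the 25 tested genes within 1 Mb of Map2k1 had a median of -0.31, of which 9 were called lower and 1 higher. Map2k1 was thus 0.185 above the median of its chromosome on the log2 scale, and the part of the chromosome in its value was not tested. The median was between -0.034 and 0.033 for the chromosomes of the other 5 targets.

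Bcl2 was the least abundant target and had the fewest read pairs, 165 to 279 per library. It was at 10.4, 9.46 and 11.4 CPM in the control libraries and 11.7, 13.2 and 8.78 CPM in the CUG200-m ones. The CUG200-m group held both the highest and the lowest of the 6 values. The means were 10.4 ± 0.992 and 11.2 ± 2.26 CPM (SD, n = 3). This gave a log2 fold change of 0.11 (standard error 0.16, 95% interval -0.27 to 0.49, edgeR adjusted p = 0.68). Without CUG200-m replicate 2 its sign turned, at -0.03 (edgeR adjusted p = 0.936). Bcl2 (ENSMUSG00000057329) spans 106538178 to 106714274 of chromosome 1. An antisense gene, D630008O14Rik, shares 558 exonic bases with it and was at 0 counts in every library.

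**Figure D2:**
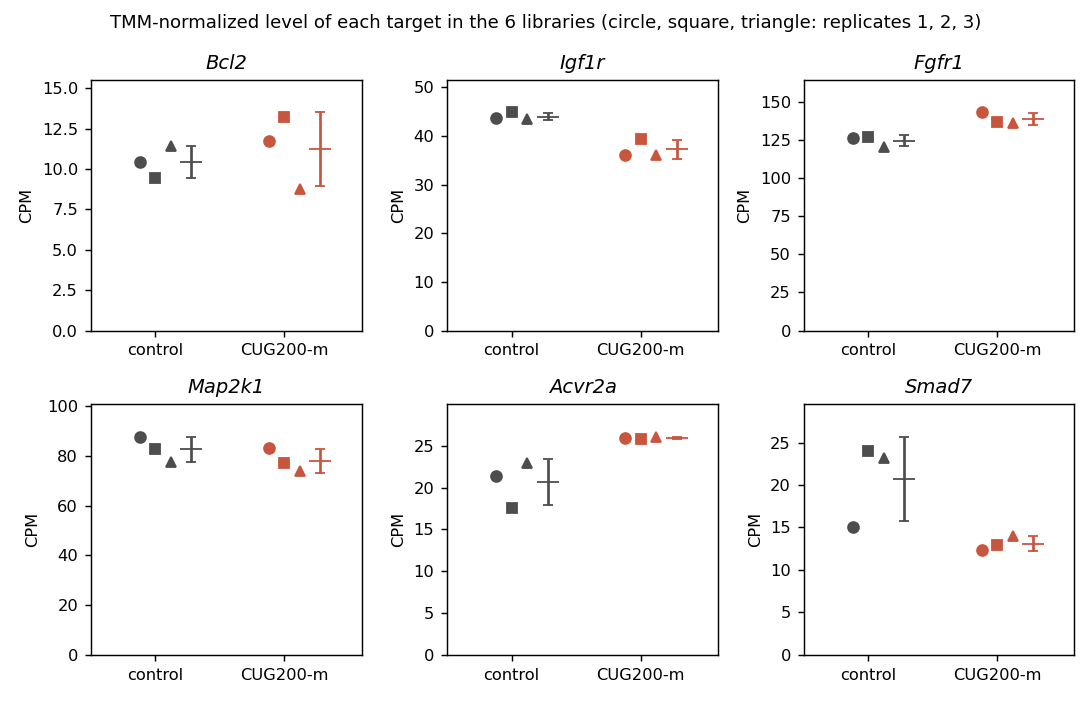
Each panel shows 1 target in CPM (vertical axis, from 0) for the control and the CUG200-m group; circle, square and triangle are replicates 1, 2 and 3, and the bar is the mean ± SD of 3 libraries. The groups are separate for Igf1r, Fgfr1, Acvr2a and Smad7 and overlap for Bcl2 and Map2k1, and control replicate 1 of Smad7, at 15.0 CPM, lies close to the CUG200-m libraries.

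Without a test, the groups did not overlap for 4 of the 6 targets, of which Smad7 and Igf1r were lower and Fgfr1 and Acvr2a higher. Over all tested genes the groups did not overlap for 45.1% (23.5% lower and 21.6% higher), too large a background for this count to be read as a result about the targets. The log2 fold changes are set beside the matches as a description of 6 genes, with no test. The targets with 1 match had -0.66 (Smad7) and -0.08 (Map2k1), those with 2 had -0.24 (Igf1r), 0.11 (Bcl2) and 0.16 (Fgfr1, whose matches overlap), and Acvr2a with 3 had 0.33. The 3 targets with an 8mer had log2 fold changes of -0.66 (Smad7), -0.08 (Map2k1) and 0.11 (Bcl2).

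**Figure D3:**
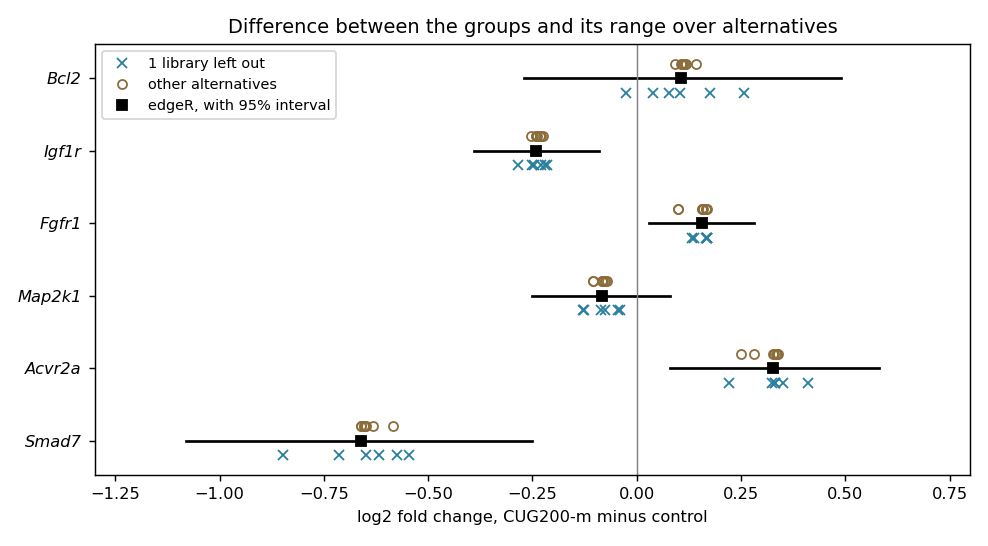
The horizontal axis is the log2 fold change, CUG200-m minus control; squares and lines are the edgeR values with their 95% intervals, crosses the 6 fits that each left out 1 library and open circles the other alternatives. Smad7 and Igf1r stay below 0 and Fgfr1 and Acvr2a above 0 throughout, while the crosses of Bcl2 run from -0.03 to 0.26.

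Levels of different genes were compared in TPM, which is scaled per length. In the control, Fgfr1 at 67.4 ± 2.65 and Map2k1 at 66.3 ± 4.62 TPM (SD, n = 3) were the most abundant targets and did not differ from each other beyond their spread. Smad7 at 9.34 ± 2.07, Igf1r at 7.80 ± 0.224 and Acvr2a at 7.31 ± 0.982 TPM formed a lower tier with overlapping ranges, and Bcl2 at 2.79 ± 0.259 TPM lay below all of them. In the CUG200-m group, Fgfr1 was at 72.3 ± 5.04 and Map2k1 at 61.7 ± 6.11 TPM, again with overlapping ranges. Within each CUG200-m library, however, Fgfr1 was above Map2k1, at 75.2 against 67.3, 75.2 against 62.6 and 66.5 against 55.2 TPM in replicates 1 to 3. Acvr2a at 8.85 ± 0.223 TPM was now the third, above Igf1r at 6.54 ± 0.398 and Smad7 at 5.80 ± 0.203 TPM, and the ranges of these 3 did not overlap. Bcl2 was at 3.11 ± 0.514 TPM. Smad7 thus moved from the third to the fifth place and Acvr2a from the fifth to the third.

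For each target, the genes whose log2 CPM ran most like it over the 6 libraries were looked up among 9662 genes whose mean reached 10 CPM. Pearson's r is given as a description, since 6 libraries in 2 groups let many genes run alike. Smad7 ran most like Fnbp4 (r = 0.99) and Stil (0.99), and 40 genes had an r above 0.95. Igf1r ran most like Sulf2 and Dync1li1 (0.9976 and 0.997), with 514 genes above 0.95. Acvr2a ran most like Kif21b and Mllt11 (0.99 each), with 95 genes above 0.95, and Fgfr1 most like Rapsn and Shc2 (0.9974 and 0.9973), with 301. Map2k1 ran most like Utp23 (0.9951) and Eef2 (0.99), with 62 genes above 0.95, and Bcl2 most like Srp14 and Ppp4r1 (0.98 each), with 5.

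Some other genes of the targets' pathways differed by more than any target did. The 6 pathway lists held 106 genes, of which 96 were tested, with 21 called higher and 26 called lower (21.9% and 27.1%, against 13.2% and 15.5% of all tested genes). Among the 13409 tested genes with an annotated 3'UTR, a closer background for these lists, 15.8% were called higher and 19.5% lower. The median log2 fold change of the list genes was 0.024, and 6 of the called ones were above 1 and 14 below -1. Pathway genes named as higher or lower had edgeR adjusted p-values of at most 0.0434. Around Bcl2, 2 of 13 tested members of its family were higher (15.4%, near the 13.2% of all tested genes) and none was lower. Pmaip1, the BH3-only protein NOXA that opposes MCL1, rose from 3.14 ± 0.377 to 22 ± 10.5 CPM (SD, n = 3; log2 fold change 2.81, edgeR adjusted p = 0.00107). Bmf, another BH3-only protein, rose by less (0.42, edgeR adjusted p = 0.0279), and lost its call in 7 of 14 alternatives. The other 11 were not past the threshold. Among them the anti-apoptotic Mcl1, Bcl2l2 and Bcl2l1 were at -0.09, -0.20 and 0.31, and the pro-apoptotic effectors Bax, Bak1 and Bok at -0.36, 0.07 and 0.41.

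Around Igf1r, 7 of 17 tested genes were lower (41.2%) and 3 higher (17.6%). Both ligands of the receptor fell. Igf2 fell from 17.95 ± 4.54 to 3.85 ± 0.405 CPM and Igf1 from 80.5 ± 8.30 to 26.5 ± 2.65 CPM (SD, n = 3), log2 fold changes of -2.22 and -1.61. The receptor substrate Irs2 had one of -1.57 and the catalytic subunit Pik3cb one of -0.81. The clearance receptor Igf2r (-0.47), the adaptor Shc1 (-0.32) and Pik3r1 (-0.33), the more abundant of the regulatory subunits of PI3K in the list, were called lower as well, while the substrate Irs1 was higher at 0.48, as were the regulatory subunit Pik3r2 (0.29) and, from 0.1095 CPM, the adaptor Grb10 (1.77). Around Fgfr1, 4 of 12 tested genes were lower (33.3%) and 2 higher (16.7%). The ligand Fgf7 fell from 48.0 ± 2.40 to 3.12 ± 0.248 CPM and Fgf10 from 41.5 ± 4.58 to 14.6 ± 2.41 CPM (log2 fold changes -3.94 and -1.51), and the sister receptors Fgfr2 and Fgfr4 had log2 fold changes of -2.80 and -2.17. The genes called higher were the receptor-like Fgfrl1 (0.86) and, from a low level of 0.288 CPM, the ligand Fgf5 (1.34), and Fgfr3 was at 0.40 without passing the threshold.

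Around Map2k1, 8 of 24 tested genes of the RAS-ERK cascade were higher (33.3%) and 2 lower (8.33%). Those higher included the ERK phosphatases Dusp4 and Dusp5 (1.23 and 0.94), the feedback inhibitor Spry1 (0.98) and the ERK substrate kinase Rps6ka3 (1.06). Others called higher included Nras (0.38), the exchange factor Sos2 (0.41) and Rps6ka2 (0.39). The genes called lower were of the same families, the ERK phosphatase Dusp7 (-0.66) and Rps6ka1, the paralog of Rps6ka3, at a low level (-2.35, from 0.790 to 0.156 CPM). Dusp6 and Spry4 were at -0.22 and -0.34 without passing the threshold. Map2k2, the paralog of Map2k1, was at 0.12 (edgeR adjusted p = 0.186). Around Smad7, 7 of 15 tested genes were lower (46.7%) and 3 higher (20%), with a median log2 fold change of -0.34. Smad6, the other inhibitory SMAD, fell from 6.69 ± 1.01 to 1.48 ± 0.480 CPM (log2 fold change -2.17), the pseudoreceptor Bambi had a log2 fold change of -3.23 from a low level of 1.33 ± 0.385 CPM, and the BMP-responsive Smad9 and Smad1 had ones of -1.20 and -0.77. Smad5, the other BMP-responsive SMAD, was called higher (0.26), as were Smad3 (0.26), which carries TGF-beta and activin signals, and Smurf1 (0.57), a ubiquitin ligase that partners with Smad7. Smurf2, the paralogous ligase and also a partner of Smad7, was called lower (-0.19), as were the latent TGF-beta binding protein Ltbp1 (-0.54) and the TGF-beta target Pmepa1 (-0.47). Smad6, Dusp7 and Pik3cb, called lower, and Smad3, called higher, lie on chromosome 9 with Map2k1. The median log2 fold change of that chromosome was -0.27, and its part in their values was not tested. Around Acvr2a, 6 of 15 tested genes were lower (40.0%) and 3 higher (20%). The activin-binding antagonists Fst and Fstl3 fell from 83.2 ± 5.12 to 15.9 ± 0.467 CPM and from 147 ± 5.32 to 60.8 ± 4.38 CPM (log2 fold changes -2.38 and -1.27). Of the subunits of activins and inhibins, Inhba, the most abundant, fell from 173 ± 18.3 to 88.5 ± 8.61 CPM (-0.97) and Inha fell too (-0.56), while Inhbb rose from 15.2 ± 1.54 to 37.4 ± 0.568 CPM (1.30). The BMP receptor Bmpr1b fell most of the list (-4.49). The type I receptor Acvr1b was also called lower (-0.65), and the type I receptor Tgfbr1 (0.29) and the ligand Gdf11 (0.39) were called higher. Acvr2b, the paralog of Acvr2a, was at 0.19 (edgeR adjusted p = 0.807).

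**Figure D4:**
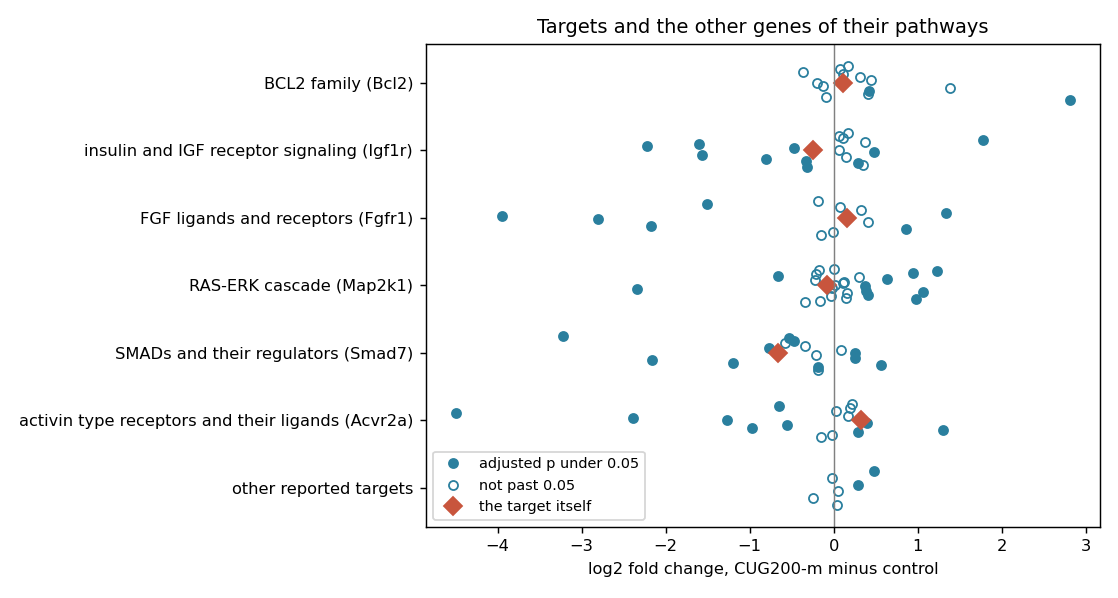
The horizontal axis is the log2 fold change, CUG200-m minus control, and each row is a list of genes, the last being other reported targets of the family; diamonds are the targets, filled circles list genes with an adjusted p under 0.05 and open circles those not past it. The diamonds lie between -0.66 and 0.33, while list genes run from -4.49 (Bmpr1b) to 2.81 (Pmaip1).

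The libraries held between 73532084 and 92157388 estimated counts, about 4 per read pair. Muscle markers were abundant in both groups and differed between them, as the summed TPM of 10 markers was between 3490 and 3840 in the control and between 4280 and 4460 in the CUG200-m group. Of these, 5 were called higher (Des 0.65, Ckm 0.87, Tnnt3 1.04, Myod1 0.37 and Mymx 0.37 on the log2 scale), Myog was called lower (-0.74), and Mymk (-0.41), Myh3 (-0.05), Acta1 (0.09) and Myf6 (0.78, under 1 TPM) were not past the threshold. Of the markers of other cell types, 3 of 5 adipocyte, 2 of 5 cartilage and bone, 2 of 5 leukocyte, 1 of 4 endothelial and 2 of 4 neuronal and glial markers were at 0 in every library. Those under 1 TPM in every library numbered 4, 4, 5, 3 and 2 in the same order. Some markers outside the muscle list differed between the groups. Tubb3 was at a mean of 49.9 TPM in the control and 109 TPM in the CUG200-m group (log2 fold change 1.14), Cebpa at 4.94 and 2.44 TPM (-1.002) and Tek at 0.457 and 1.76 TPM (1.90), all with edgeR adjusted p-values of at most 0.00112. The summed TPM was between 49.1 and 53.5 in the control and 98.3 and 119 in the CUG200-m group for the neuronal and glial list, 4.85 and 5.07 against 2.26 and 2.91 for the adipocyte list, and 0.423 and 0.524 against 1.56 and 2.34 for the endothelial list. The cartilage and bone list summed to at most 2.12 TPM and the leukocyte list to at most 0.587 TPM. In bulk RNA, a smaller share of cells with a messenger and less of it per cell cannot be told apart, and the part of these markers' differences in the values of the 6 targets was not tested.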

How the data were processed

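RNA-seq of 3 control and 3 CUG200-m libraries was analysed. Per the labels and the study's methods, the authors used Trim Galore to filter reads, HISAT2 to align to GRCm38 and StringTie for read count tables. Versions, annotation and strand setting are not given in the sources used here. The deposited matrix holds estimated counts as whole numbers without normalization, and the deposited table of each library holds coverage, FPKM and TPM per gene. FPKM was not used. TPM values of genes listed more than once were summed. Of 55421 identifiers, 55240 were found in GENCODE M21.

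For single-transcript genes 1 estimated count stood for a median of 75.0 covered bases, and low genes most often had 300 covered bases, which makes about 4 counts per read pair. Replicates differed beyond sampling noise in every pair (chi-square per degree of freedom 14.8 to 21.3). The read pairs carry no molecular identifiers that the methods mention, so counting error alone understates the spread.

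Counts were tested with edgeR 4.0.16 in R 4.3.3 (filterByExpr, TMM, glmQLFit, glmQLFTest) over 18140 genes with Benjamini-Hochberg adjustment. The standard error is the log2 fold change divided by the square root of F, with a t interval. No value enters the rule for the members, but this set of members and the lists were chosen with earlier results of these data known. Named genes are the 6 targets, the 4 called genes of each list with the largest absolute log2 fold change and at least 1 CPM in the higher group, the 2 most similar genes per target, and the marker genes. The other called genes of the pathway lists (1 is not reported here), and Mcl1, Bcl2l1, Bcl2l2, Bax, Bak1, Bok, Map2k2, Acvr2b, Orc4, Fgfr3, Dusp6, Spry4, Vegfa, Cul2, Bace1 and Ppm1d were added after their values were seen. Seed matches were counted in the longest 3'UTR after the stop codon. The computations were tested on simulated data. Alternatives were DESeq2 1.42.0, RLE size factors, other filters, limma 3.58.1 on log2(TPM + 1) and log2(TPM + 0.1), the replicate number as a block, each library left out in turn, counts per read pair and the principal transcript's 3'UTR.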

Additional observations from a re-analysis of the deposited data

How the results depend on the processing

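Over 14 alternatives each, Igf1r, Fgfr1, Map2k1, Smad7 and Acvr2a kept their direction, and no target passed a log2 fold change of 1 in either direction. Bcl2 turned to -0.026 without CUG200-m replicate 2. Igf1r lost its call with limma on log2(TPM + 1) (-0.225) and log2(TPM + 0.1) (-0.253), which left 1 target called lower against 2. Fgfr1 passed the threshold with RLE size factors (0.168), with the replicate block (0.157) and with counts divided to read pairs (0.165), and Acvr2a with DESeq2 (0.336), each of which made 1 target called higher against 0. The causes were not tested. With 1 of the 6 libraries left out at a time, which leaves fewer samples by construction, the log2 fold change lay between -0.026 and 0.257 for Bcl2, -0.284 and -0.215 for Igf1r, 0.132 and 0.169 for Fgfr1, -0.129 and -0.041 for Map2k1, -0.847 and -0.545 for Smad7, and 0.222 and 0.410 for Acvr2a, with 0 to 1 targets called lower and 0 to 1 higher. Smad7 and Igf1r were both lost without control replicates 2 or 3 or CUG200-m replicates 1 or 3. Genes of all 7 lists called higher numbered 14 with limma on either pseudocount and 15 to 20 with 1 library left out (15 without control replicate 1), against 23. For the 24 list genes taken by size of change, 10 of 335 values lost the call (7 of Bmf, 3 of Celf1) and none changed sign. Values that kept the call could still be much smaller. With limma on log2(TPM + 1), Bambi was at -0.508 against -3.226 and Smad9 at -0.446 against -1.201. Fgfr2 was at -1.741 against -2.803 and Irs2 at -1.1 against -1.567 in the same fit. The 3'UTR of the principal transcript was the same 3'UTR for each target, so that this alternative could not differ.

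Libraries of the same replicate number were not taken as pairs, since their deviations from the group mean correlated at 0.312, 0.165 and -0.0641. With the replicate number as a block, more genes were called over all tested genes, 2667 higher and 3066 lower against 2401 and 2817. Whether the libraries share structure by replicate number was not tested. Apart from Fgfr1 (0.157 with the replicate block) and Bmf (0.425), no target and none of those 24 genes changed its side of the threshold under the block. Read pairs per library were fewest for Bcl2 (from 165), Smad7 (from 242) and Acvr2a (from 364).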

Other observations

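Of 7 other reported targets of the family, 6 were tested. Each of these 6 held a match to the seed in its 3'UTR, none was called lower and 2 were called higher, against 15.5% lower and 13.2% higher among all tested genes, so that these counts of 6 genes are not far from the background. A match in each adds no support, since they too were chosen as reported targets. Celf1, the splicing regulator that the study names as a target of miR-322 and miR-503, was at 71.7 ± 5.71 CPM in the control and 87.8 ± 1.67 CPM in the CUG200-m group (SD, n = 3). The log2 fold change was 0.29 (edgeR adjusted p = 0.016), and the call was lost without control replicate 1 (edgeR adjusted p = 0.0552), control replicate 3 (0.0509) or CUG200-m replicate 2 (0.0566). Arl2, a small GTPase with 4 matches, was higher by 0.48 on the log2 scale (edgeR adjusted p = 0.0107). Vegfa was at 0.04, Cul2 at 0.05, Bace1 at -0.02 and Ppm1d at -0.25, and none of these 4 was past the threshold.

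Over all tested genes with a 3'UTR, those without a match had a median log2 fold change of -0.03 (9372 genes, 19.8% called lower and 14.9% higher), those with 1 match 0.01 (2669 genes, 18.7% and 17.5%), those with 2 matches 0.01 (907 genes, 19.2% and 18.1%) and those with 3 or more 0.02 (461 genes, 17.8% and 18.2%). Genes with an 8mer had a median of 0.01 (675 genes, 20.3% called lower and 19.6% called higher). These are descriptions without a test. Matches were more frequent among long 3'UTRs (59.0% of the 3355 tested genes with the longest ones held 1 or more), and the part of length was not tested.

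Of the 96 tested genes of the 6 pathway lists, 47 held a match and 49 did not. Among those with a match 12 were called lower and 9 higher, and among those without 14 and 12. Over all tested genes with a 3'UTR, 19.5% were called lower and 15.8% higher, and of those without a match 19.8% and 14.9%. These counts are given without a test.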
